A study of Mus musculus with 18 samples.

Results

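Matrix metalloproteinases (MMPs), tissue inhibitors of metalloproteinases (TIMPs) and the membrane protease ADAM8 were followed at the RNA level in cultured mouse dendritic cells (DCs). Of the 62197 genes in the deposited expression table, 10 are described, *Mmp8*, *Mmp9*, *Mmp12*, *Mmp13*, *Mmp14*, *Mmp19*, *Mmp25*, *Timp1*, *Timp2* and *Adam8*. They were chosen by gene symbol, and each of the 10 symbols matched 1 gene. MMPs are zinc-dependent proteases that are made as inactive precursors and that cleave collagens, elastin and other matrix proteins, and some of them also cut cytokines and receptors. TIMPs bind the active site of these enzymes and block it, so that the balance of both sets the degradation of matrix around a cell. In DCs and other leukocytes these enzymes have been linked to passage through basement membranes and interstitial tissue.

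The study asked how a change of cell shape alters DCs, and it used the lipid enzyme cPLA_2_, encoded by *Pla2g4a*, as the sensor under test. RNA was sequenced from bone marrow-derived DCs in 6 conditions with 3 libraries each, which makes 18 libraries. Marrow was cultured for 10 days with granulocyte-macrophage colony-stimulating factor supplied as supernatant of J558 cells, and the semiadherent cells were taken as DCs. By the Methods, DCs were told from other myeloid cells of the same culture by how firmly each type adheres, macrophages most and granulocytes least. Mice of the cPLA_2_ KO genotype carried a conditional *Pla2g4a* allele with *Itgax-cre*, in which the promoter of the CD11c gene drives Cre, so that deletion depends on how far CD11c was switched on in each cell. Nonconfined cells of both genotypes, cPLA_2_ WT and cPLA_2_ KO, were untreated and were collected when the culture ended. Confined cells of both genotypes spent time under a ceiling at a height of 3 µm and were collected 4 h after confinement. LPS-treated cells of both genotypes were not confined, received 100 ng/ml lipopolysaccharide (LPS) for 30 min by the labels and a slightly shorter time by the Methods, were washed and were collected on the following day. The sample labels give no age, sex or number of animals, and they do not say which libraries came from separate cultures. Confined and LPS-treated cells were thus collected later than nonconfined cells, so that treatment and time after culture cannot be told apart. The protocol text names LPS for all 18 samples, whereas titles and treatment entries name it for the LPS groups alone, and the latter were followed. A pair of library kits is named in the labels without a statement of which library used which.

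Values are normalized counts, which are reads per gene divided by a size factor per library and not scaled for gene length. Depth ranged from 33027230 to 61300021 reads on genes per library, with a median of 40950397. By condition it lay between 34689393 and 45020354 in nonconfined cPLA_2_ WT, 36034820 and 45021696 in nonconfined cPLA_2_ KO, and 33592725 and 45769637 in confined cPLA_2_ WT libraries. It lay between 33027230 and 39400286 in confined cPLA_2_ KO libraries, between 52116837 and 61300021 in libraries labelled LPS cPLA_2_ WT, and between 39609637 and 45160523 in libraries labelled LPS cPLA_2_ KO. All 10 genes passed the filter of 10 or more normalized counts in 3 or more libraries, as did 17875 genes in all, and the lowest value of any of the 10 in any library was 15.5 (*Timp1*). Nonconfined libraries held 16 to 42 reads of *Timp1*, whereas every other gene of the 10 had at least 342 reads in every library, so that counting error matters for *Timp1* in nonconfined cells. Differences were tested with limma on log2(normalized count + 1) in 1 fit over all 18 libraries, and p-values were adjusted over all 17875 genes within a comparison. A gene is said to rise or fall where its adjusted p was under 0.05, and it is said to be called where its log2 fold change also passed 1 in size. These p-values measure the spread between libraries.

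The deleted gene was read first. *Pla2g4a* gave 697, 686 and 770.4 normalized counts in nonconfined cPLA_2_ WT and 548, 542 and 533 in nonconfined cPLA_2_ KO libraries. Confined libraries held 1369, 1430.3 and 1321 in cPLA_2_ WT and 923, 871 and 919.5 in cPLA_2_ KO cells. In both treatments the 3 cPLA_2_ KO libraries lay below the 3 cPLA_2_ WT libraries, although transcript was left in all 6. The cPLA_2_ KO level was lower by a log2 fold change of -0.41 in nonconfined cells (limma, adjusted p = 0.000190) and of -0.60 in confined cells (adjusted p = 3.81e-08).

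The LPS libraries did not follow their genotype labels, which bears on every LPS value given here. *Pla2g4a* was at 1005, 969 and 967 in libraries labelled LPS cPLA_2_ WT and at 1065, 1032 and 1028 in libraries labelled LPS cPLA_2_ KO. All 3 libraries labelled cPLA_2_ KO lay above all 3 labelled cPLA_2_ WT, and the difference of 0.09 (95% confidence interval (CI) -0.04 to 0.21) did not pass the test. The Y-linked gene *Ddx3y* stayed at 3.05 normalized counts or less in nonconfined and confined cPLA_2_ WT libraries and was at 874 or more in the cPLA_2_ KO libraries of both treatments. In the LPS libraries *Ddx3y* was at 1271, 0 and 662 in those labelled cPLA_2_ WT and at 2.12, 1476 and 783 in those labelled cPLA_2_ KO. Thus each label held 1 library with near to no *Ddx3y*, 1 with a high level and 1 between them. A second Y-linked gene, *Eif2s3y*, had the same order, with 799, 1.83 and 448 under the cPLA_2_ WT label and 2.12, 863 and 505 under the cPLA_2_ KO label. *Acot1*, an autosomal gene, was at 6.76 or less in nonconfined and confined cPLA_2_ WT libraries and at 377 or more in those of cPLA_2_ KO. The LPS libraries held 54.9, 0.915 and 33.6 of *Acot1* under the cPLA_2_ WT label and 0, 49.2 and 40.7 under the cPLA_2_ KO label. *Ddx3y*, *Eif2s3y* and *Acot1* were picked after their values had been seen. LPS libraries are therefore named by their labels, and comparisons without them are given first. In the 12 libraries without LPS the Y-linked genes divide the genotypes completely, so that genotype and sex of the donors cannot be told apart in any genotype difference or interaction given here.

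Marker genes were read to check the cell type of the labels. All 8 DC markers were detected in all 18 libraries, among them *Itgax* (4194 to 7192 normalized counts), *Cd74* (189379 to 336000) and *Zbtb46* (468 to 1379). Summed over the list, DC markers gave 374401, 348787 and 355047 in nonconfined cPLA_2_ WT, 433016, 408705 and 422900.0 in nonconfined cPLA_2_ KO and 342468, 320587 and 330595 in confined cPLA_2_ WT libraries. Confined cPLA_2_ KO libraries gave 300550.0, 285725 and 298885, with 541943, 475685 and 502372 in libraries labelled LPS cPLA_2_ WT and 482956, 533857 and 516705 in those labelled LPS cPLA_2_ KO. *Cd74* made up 64.1% of that sum. Markers of other myeloid cells were present as well, and no neutrophil, macrophage or eosinophil marker was at 0 in any library. Neutrophil markers, with *S100a9* as the most abundant (40.4% of the sum of 13 genes), gave 258866, 263846 and 262491 in nonconfined cPLA_2_ WT and 402882, 361739 and 388788 in nonconfined cPLA_2_ KO libraries. After confinement they gave 189489, 180318 and 178497 in cPLA_2_ WT and 358944, 370236 and 354849 in cPLA_2_ KO libraries, with 405545, 366959 and 381997 and 358045, 413461 and 386443 in libraries labelled LPS cPLA_2_ WT and LPS cPLA_2_ KO. The sum was thus higher in cPLA_2_ KO than in cPLA_2_ WT libraries of both treatments without overlap, but single markers went against it. *Lcn2* was lower in confined cPLA_2_ KO (22328, 20987 and 21357) than in confined cPLA_2_ WT libraries (33298, 31325 and 31728). *Prtn3* (1214, 1056 and 1246 against 1478, 1406 and 1321) and *Elane* (869, 809 and 865 against 1026, 874 and 1002) were lower in nonconfined cPLA_2_ KO than in nonconfined cPLA_2_ WT libraries. Eosinophil markers, led by *Prg2* (61.4% of 5 genes), gave 28264, 27979 and 27902 in nonconfined cPLA_2_ WT and 67854, 63451 and 65406 in nonconfined cPLA_2_ KO libraries. After confinement the sums were 7625, 7131 and 7056 in cPLA_2_ WT and 16471, 15954 and 16902 in cPLA_2_ KO libraries, with 39860.4, 23376 and 31545 and 23170.3, 39434 and 32226 under the LPS labels. These sums were also higher in cPLA_2_ KO libraries and lower after confinement, with no overlap, but they follow the abundant genes of the list. *Siglecf* was lower in cPLA_2_ KO libraries, at 931, 990.5 and 907 against 1426, 1346 and 1435 in nonconfined and 1174, 1029 and 1107 against 1576, 1356 and 1411 in confined cells. *Ccr3* went from 82.3, 83.6 and 90.4 to 207, 189.5 and 173 with confinement in cPLA_2_ WT libraries and from 246, 219.7 and 221 to 75.5, 42.7 and 65.6 in those of cPLA_2_ KO. Of the 5 eosinophil markers limma called 1 upward and 3 downward after confinement of cPLA_2_ WT cells, where 11.4% and 7.62% of all genes were called. In confined cPLA_2_ KO against confined cPLA_2_ WT cells it called 3 upward and 1 downward, where 2.79% and 7.31% of all genes were. In nonconfined cells that comparison called 4 upward and 0 downward, against 0.850% and 0.302%. Confinement of cPLA_2_ KO cells called 0 upward and 4 downward, against 6.43% and 5.53%. LPS called 0 under the cPLA_2_ WT label (15.0% and 12.3%) and 4, all downward, under the cPLA_2_ KO label (15.0% and 12.9%). Macrophage markers, led by *Csf1r* (46.6% of 10 genes), summed to between 62769 and 78374 over all libraries. Without LPS they were higher in cPLA_2_ KO libraries with no overlap, and nonconfined cPLA_2_ WT and cPLA_2_ KO cells had mean sums of 66785 and 74954, which were 67082 and 75406 after confinement. *Fcgr1* went against that sum, at 1402, 1368 and 1503 in confined cPLA_2_ KO and 3479, 3315 and 3084 in confined cPLA_2_ WT libraries. Mast cell and basophil markers, led by *Cpa3* (43.1% of 7 genes), summed to between 3418 and 10458, and *Mcpt4* was at 0 in 17 libraries. Their mean sums were 6963 in cPLA_2_ WT and 10190.5 in cPLA_2_ KO nonconfined cells and 3485 and 5513 after confinement, thus higher in cPLA_2_ KO libraries and lower after confinement with no overlap. Not every marker followed that sum, since *Kit* was higher after confinement, at 913, 953 and 987 against 724, 747 and 739 in cPLA_2_ WT and 1411, 1383 and 1446 against 779.6, 860.1 and 801 in cPLA_2_ KO libraries, and *Gata2* was lower in confined cPLA_2_ KO (554, 520.4 and 544) than in confined cPLA_2_ WT libraries (582, 579 and 589.9). Stromal markers, led by *Col1a1* (44.4% of 8 genes), summed to between 124 and 351, with *Lum* at 0 in 11 and *Dcn* at 0 in 9 libraries. Their mean sums were 130 in cPLA_2_ WT and 227 in cPLA_2_ KO nonconfined cells, 161 and 202 after confinement, and 314 and 302 under the LPS labels. Without LPS they were higher in cPLA_2_ KO libraries with no overlap. *Pdgfrb* went against that sum, at 64.7, 58.3 and 94.8 in confined cPLA_2_ WT and 7.55, 4.27 and 14.6 in confined cPLA_2_ KO libraries. It was at 149 or more in LPS libraries.

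Levels of different genes were compared as mean normalized counts per kilobase of the canonical transcript. *Mmp12* had the highest level in every condition, from 12456 per kilobase in nonconfined cPLA_2_ KO to 22717 in confined cPLA_2_ WT cells. *Adam8* came next in every condition, from 10447 in nonconfined cPLA_2_ WT to 18339 in confined cPLA_2_ WT cells. *Mmp8* followed them in the 4 conditions without LPS, with 6597 in nonconfined and 7048 in confined cPLA_2_ WT cells, and *Mmp14* held that place under both LPS labels (10473 and 10281). *Timp1* was lowest per kilobase in nonconfined cells (28.6 in cPLA_2_ WT and 24.2 in cPLA_2_ KO) and in confined cPLA_2_ KO cells (77.1). In confined cPLA_2_ WT cells *Timp1* stood at 2817 per kilobase and ranked number 5 of the 10, while *Mmp9* was lowest at 119.5. The lowest level under both LPS labels was that of *Mmp19*, at 250.5 and 246 per kilobase.

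**Figure D1:**
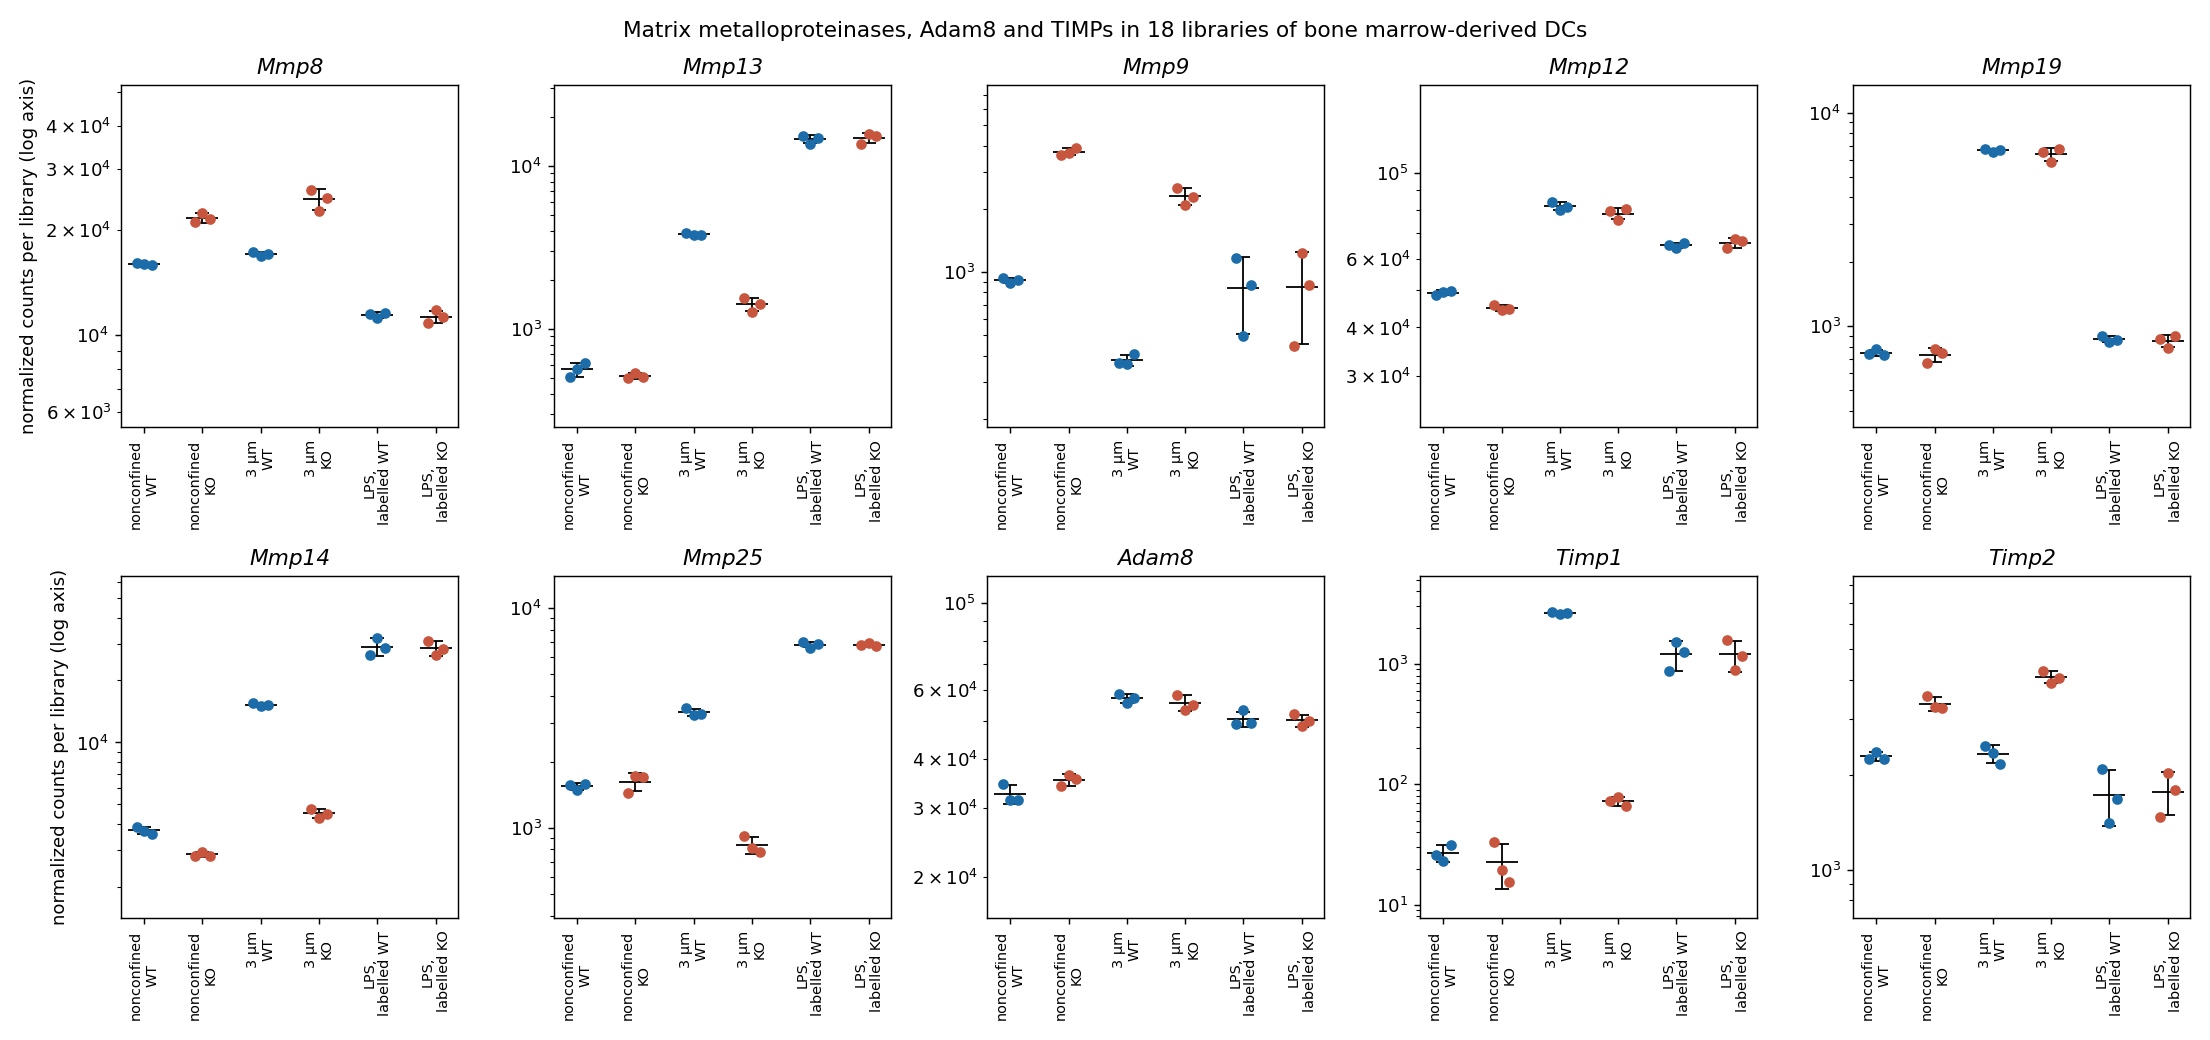
Normalized counts per library (log axis, points) of the 10 genes in the 6 conditions, with the mean (wide bar) and the standard deviation (error bar) of 3 libraries each. *Timp1* lay between 2597 and 2701 in confined cPLA_2_ WT libraries and between 66.5 and 77.8 in confined cPLA_2_ KO libraries, whereas *Mmp19* overlapped between the genotypes.

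Confinement was compared with no confinement within each genotype, which asks how the genes respond to the reduced height. In cPLA_2_ WT cells 5 of the 10 genes were called upward, where 11.4% of all genes tested were, and 1 was called downward, where 7.62% were. The median log2 fold change was 0.97 over the 10 genes and -0.01 over all genes. In cPLA_2_ KO cells 3 genes were called, all 3 upward, against 6.43% of all genes upward and 5.53% downward, with medians of 0.66 and 0.01. The interaction, which tests whether the response to confinement differed between the genotypes, called 4 of the 10 genes, all 4 toward a lower response in cPLA_2_ KO cells. Over all genes the interaction called 6.56% in that direction and 1.11% in the other, and the medians were -0.10 for the 10 genes and 0.05 for all genes. The same 6, 3 and 4 genes were called when the LPS libraries were left out of the fit. A rescaling of every library to the same total moved the median over all genes to -0.23 for confinement in cPLA_2_ WT cells, to 0.24 for the interaction, to -0.47 and -0.44 for LPS under the cPLA_2_ WT and cPLA_2_ KO labels, to 0.19 for confined cPLA_2_ KO against confined cPLA_2_ WT cells, and to 0.26 and 0.46 for confined against LPS-treated cells. No called gene of the 10 changed direction under it.

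Between genotypes, confined cPLA_2_ KO against confined cPLA_2_ WT cells gave 1 call upward and 4 downward among the 10 genes, against 2.79% and 7.31% of all genes, with medians of -0.06 and 0.04. In nonconfined cells the same comparison called 1 of the 10 genes, upward, where 0.850% of all genes were called upward and 0.302% downward, and the medians were 0.02 and -0.00. These 5 calls and 1 call fell on the same genes without the LPS libraries in the fit. Among LPS libraries, limma called 0 of the 10 and 0 of 17875 genes between the labels, which is 0% upward and 0% downward. There 890 genes had an unadjusted p under 0.05, none of the 10 among them, and edgeR (812 genes under 0.05 unadjusted) and DESeq2 (831) also called 0. The largest log2 fold change among the 10 genes in that comparison was 0.04 (*Timp2*, 95% CI -0.19 to 0.27), and the groups overlapped for all 10. The fit did not pair libraries of like *Ddx3y* level across the labels, so that the spread within each label enters this test.

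LPS was set against no treatment within each label, as a reference for DC activation by a microbial product. Libraries labelled LPS cPLA_2_ WT gave 4 calls, all 4 upward, where 15.0% of all genes were called upward and 12.3% downward, with a median of 0.52 for the 10 genes and 0.03 for all. Libraries labelled LPS cPLA_2_ KO gave 4 calls upward and 1 downward, against 15.0% and 12.9% of all genes, with medians of 0.53 and 0.02. With the controls exchanged, libraries labelled LPS cPLA_2_ KO against nonconfined cPLA_2_ WT libraries gave 4 calls and libraries labelled LPS cPLA_2_ WT against nonconfined cPLA_2_ KO libraries gave 5, and the gene that changed place was *Mmp9*. Of all genes 15.0% were called upward and 12.8% downward in the former and 15.6% and 12.9% in the latter. Confined cPLA_2_ WT cells against libraries labelled LPS cPLA_2_ WT gave 2 calls upward and 3 downward, against 6.32% and 7.51% of all genes, with medians of 0.25 and -0.02. Confined cPLA_2_ KO cells against libraries labelled LPS cPLA_2_ KO gave 4 calls upward and 4 downward, against 10.4% and 12.6% of all genes, with medians of 0.20 and 0.02. The confinement and LPS comparisons share their nonconfined libraries, and the last 2 share their confined or LPS libraries with them.

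**Figure D2:**
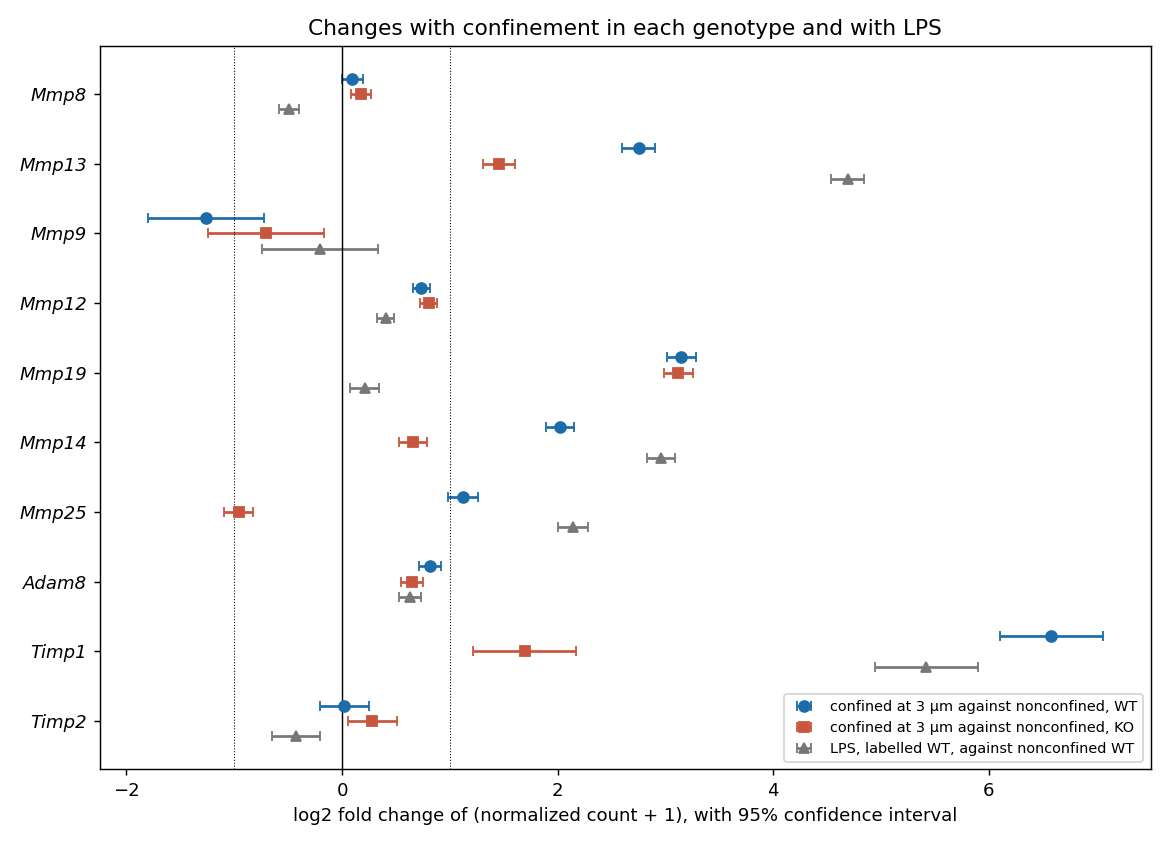
Log2 fold change (x axis) with its 95% confidence interval for each of the 10 genes after confinement in cPLA_2_ WT and cPLA_2_ KO cells and for libraries labelled LPS cPLA_2_ WT, each against nonconfined cells, with dotted lines at 1 and -1. Intervals for *Timp1*, *Mmp14*, *Mmp25* and *Mmp13* lay apart between the genotypes, those for *Mmp19* overlapped at 3.15 and 3.12, and a rescaling to the same total turned *Mmp12* (to -0.11) and *Mmp19* (to -0.30) negative after LPS and *Mmp8* (to -0.13) and *Timp2* (to -0.20) negative after confinement of cPLA_2_ WT cells.

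Among the collagenases, *Mmp8* encodes the enzyme stored in neutrophil granules (chr9:7558430-7568487 on mm39, plus strand). Nonconfined libraries held 16132, 15977 and 15902 normalized counts in cPLA_2_ WT and 21054, 22482 and 21601 in cPLA_2_ KO cells. Confined libraries held 17357, 16869 and 17073 in cPLA_2_ WT and 26168, 22779 and 24821 in cPLA_2_ KO cells. Libraries labelled LPS cPLA_2_ WT held 11463, 11146 and 11574 and those labelled LPS cPLA_2_ KO 10848, 11757 and 11259. The LPS libraries were lowest and overlapped between labels, and all other neighbours in the order confined cPLA_2_ KO, nonconfined cPLA_2_ KO, confined cPLA_2_ WT and nonconfined cPLA_2_ WT were apart. Means with standard deviation (n = 3) were 24589 ± 1706 and 17099.6 ± 245 after confinement of cPLA_2_ KO and cPLA_2_ WT cells and 21712 ± 720.3 and 16004 ± 117 without it, with 11394 ± 222 and 11288 ± 455 under the LPS labels cPLA_2_ WT and cPLA_2_ KO. The level was higher in cPLA_2_ KO cells by 0.44 without confinement (limma, adjusted p = 4.16e-06) and by 0.52 with it (adjusted p = 6.02e-09). Confinement gave a small rise of 0.18 in cPLA_2_ KO cells (adjusted p = 0.00313). In cPLA_2_ WT cells the difference of 0.10 (95% CI 0.00 to 0.19) did not pass, and it was -0.13 and passed downward with every library scaled to the same total. It passed upward in edgeR (0.12), in DESeq2 and with the compared conditions alone. The interaction was 0.08 (95% CI -0.05 to 0.22) and did not pass, whereas it was 0.27 and passed (adjusted p = 0.000868) with libraries scaled to the same total. With LPS the level fell by -0.49 under the cPLA_2_ WT label and by -0.94 under the cPLA_2_ KO label, both against their own nonconfined libraries (limma, adjusted p = 4.86e-09 and 8.08e-14). Both falls of *Mmp8* were larger and were called with libraries scaled to the same total, the latter at -1.42. In bulk libraries fewer cells of a type and less RNA per cell cannot be told apart. Among the 13 neutrophil markers 9 were called upward and 0 downward in confined cPLA_2_ KO against confined cPLA_2_ WT cells by limma, where 2.79% and 7.31% of all genes were. In nonconfined cells 2 were called, both upward, where 0.850% of all genes were, and their part in the genotype difference of *Mmp8* was not tested.

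The other collagenase, *Mmp13*, encodes collagenase 3, which cleaves fibrillar collagens (chr9:7272514-7283333, plus strand). Nonconfined libraries held 507, 565 and 621 in cPLA_2_ WT and 499, 535 and 510.5 in cPLA_2_ KO cells. Confined libraries held 3870.1, 3749.9 and 3790.4 in cPLA_2_ WT and 1546, 1279.6 and 1431 in cPLA_2_ KO cells. Under the LPS labels the values were 15261, 13721 and 14858 for cPLA_2_ WT and 13686, 15693 and 15214 for cPLA_2_ KO. All 6 LPS libraries were thus highest, the confined cPLA_2_ WT libraries followed, the confined cPLA_2_ KO libraries lay below them without overlap, and nonconfined libraries of both genotypes overlapped at the bottom. Means ± standard deviation (SD, n = 3) were 14864 ± 1048 and 14613 ± 799 under the LPS labels cPLA_2_ KO and cPLA_2_ WT, and after confinement 3803 ± 61.1 in cPLA_2_ WT and 1419 ± 134 in cPLA_2_ KO cells. Nonconfined means were 565 ± 56.8 in cPLA_2_ WT and 515 ± 18.5 in cPLA_2_ KO cells, a difference of -0.13 (95% CI -0.28 to 0.02) that did not pass. Confinement raised *Mmp13* by 2.75 on the log2 scale (6.75-fold, standard error (SE) 0.07) in cPLA_2_ WT cells (limma, adjusted p = 5.05e-18). The rise in cPLA_2_ KO cells was 1.46 (2.74-fold, adjusted p = 9.21e-13). The interaction was -1.30 (SE 0.10, limma, adjusted p = 2.23e-09), so that the response was smaller in cPLA_2_ KO cells. LPS gave the largest log2 fold changes of *Mmp13*, 4.69 under the cPLA_2_ WT label and 4.85 under the cPLA_2_ KO label (limma, adjusted p = 2.88e-22 and 1.77e-22). Confined cells stayed below LPS-treated cells, by -1.94 for cPLA_2_ WT and -3.39 for cPLA_2_ KO as labelled.

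*Mmp9* encodes gelatinase B, which cleaves denatured collagen and basement membrane collagen (chr2:164790139-164797769, plus strand). Nonconfined libraries held 936, 884 and 918 in cPLA_2_ WT and 3618, 3700.3 and 3896 in cPLA_2_ KO cells. Confinement left 369, 364 and 405 in cPLA_2_ WT and 2524, 2093 and 2284 in cPLA_2_ KO cells. Libraries labelled LPS cPLA_2_ WT held 1161, 493 and 869 and those labelled LPS cPLA_2_ KO 443, 1229 and 869.8. The 6 cPLA_2_ KO libraries without LPS were the highest 6, and the confined cPLA_2_ WT libraries were the lowest. LPS libraries spread widely within each label and overlapped both each other and the nonconfined cPLA_2_ WT libraries. Mean ± SD was 841 ± 335 and 847 ± 393 under the LPS labels cPLA_2_ WT and cPLA_2_ KO (n = 3), against 913 ± 26.5 in nonconfined cPLA_2_ WT and 3738 ± 142 in nonconfined cPLA_2_ KO libraries. In confined cells the means were 379.6 ± 22.2 in cPLA_2_ WT and 2300.3 ± 216 in cPLA_2_ KO. The genotype difference was 2.03 (4.09-fold) in nonconfined cells and 2.59 (6.04-fold) in confined cells (limma, adjusted p = 4.07e-05 and 4.37e-08). *Mmp9* was the gene called in nonconfined cPLA_2_ KO against nonconfined cPLA_2_ WT cells. Confinement lowered it by -1.27 in cPLA_2_ WT cells (adjusted p = 0.000258) and by -0.70 in cPLA_2_ KO cells (adjusted p = 0.0307). The latter did not pass when any 1 of 5 libraries was left out, with adjusted p up to 0.0956 without confined cPLA_2_ KO replicate 2, nor without a filter or in DESeq2. The interaction of 0.56 (95% CI -0.20 to 1.32) did not pass in the fit over 18 libraries, in which the spread of the LPS libraries enters, and it passed without them (limma, adjusted p = 0.000139, with a range of 0.000139 to 0.417 over all alternatives for *Mmp9*). For the LPS libraries the result hung on the control and, under the cPLA_2_ WT label, on scaling and single libraries. Against their own nonconfined libraries the differences were -0.20 under the cPLA_2_ WT label (95% CI -0.74 to 0.34, not passing, but -0.72 and passing with libraries scaled to the same total and 0.14 without replicate 2 of that label) and -2.26 under the cPLA_2_ KO label (adjusted p = 1.13e-07). Against the other genotype, the cPLA_2_ KO label gave -0.23 (adjusted p = 0.462) and the cPLA_2_ WT label -2.24 (adjusted p = 1.31e-07). Under each label the LPS library with most *Mmp9* was also the one with most *Ddx3y* and the highest eosinophil marker sum. Without LPS, neutrophil, eosinophil, macrophage, mast cell and basophil, and stromal marker sums were all higher in cPLA_2_ KO libraries, as *Mmp9* was. The eosinophil and the mast cell and basophil sums fell with *Mmp9* after confinement in both genotypes. Their part in its level was not tested.

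The macrophage elastase gene *Mmp12* (chr9:7344396-7369499, plus strand) ranged from 44323 to 49578 normalized counts in the 6 nonconfined libraries, from 75466 to 84037 in the 6 confined libraries and from 63977 to 67686 in the 6 LPS libraries. The 3 treatments did not overlap, and within confinement and LPS the genotypes did. Mean levels ± SD (n = 3) were 81940.2 ± 1943 and 78489.5 ± 2651 after confinement of cPLA_2_ WT and cPLA_2_ KO cells and 49143 ± 670.3 and 44930.3 ± 769 without it. Under the LPS labels they were 65129.7 ± 918 for cPLA_2_ WT and 66104 ± 1914 for cPLA_2_ KO. Confinement raised *Mmp12* by 0.74 in cPLA_2_ WT and by 0.80 in cPLA_2_ KO cells (limma, adjusted p = 5.02e-13 and 3.73e-13), and the interaction of 0.07 (95% CI -0.05 to 0.18) did not pass. That interaction was 0.26 and passed with libraries scaled to the same total (adjusted p = 0.000143). The genotypes differed by -0.06 (95% CI -0.14 to 0.02) in confined cells, which did not pass. With libraries scaled to the same total that difference was 0.09 and passed. In 1 other alternative it passed without a change of sign. In nonconfined cells *Mmp12* was lower in cPLA_2_ KO by -0.13 (adjusted p = 0.0387), which did not pass when any 1 of the 6 libraries was left out, with adjusted p from 0.0620 to 0.133. It also did not pass without a filter, with TMM scaling or with the compared conditions alone. The LPS difference was 0.41 under the cPLA_2_ WT label and 0.56 under the cPLA_2_ KO label, and these became -0.11 and 0.08 with libraries scaled to the same total.

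*Mmp19* encodes a secreted enzyme with activity on basement membrane components (chr10:128626778-128636696, plus strand). Nonconfined libraries held 737, 776 and 733 in cPLA_2_ WT and 671, 780.1 and 747 in cPLA_2_ KO cells. Confined libraries held 6732, 6518 and 6690.1 in cPLA_2_ WT and 6519.5, 5885 and 6715 in cPLA_2_ KO cells. Values under the LPS labels were 895, 842 and 864 for cPLA_2_ WT and 864, 791 and 902 for cPLA_2_ KO. The 6 confined libraries stood far above the 12 others, and the genotypes overlapped within each treatment. Mean levels ± SD (n = 3) were 6647 ± 114 for cPLA_2_ WT and 6373 ± 434 for cPLA_2_ KO after confinement, 867 ± 26.5 and 852 ± 56.6 under the LPS labels, and 749 ± 23.8 and 733 ± 56.1 in nonconfined cPLA_2_ WT and cPLA_2_ KO libraries. Confinement raised *Mmp19* by 3.15 (8.87-fold, SE 0.06) in cPLA_2_ WT cells and by 3.12 (8.69-fold) in cPLA_2_ KO cells (limma, adjusted p = 5.89e-20 and 4.71e-19). The interaction was -0.03 with a 95% CI of -0.22 to 0.16, and it was 0.16 with libraries scaled to the same total, without passing in either. LPS gave 0.21 and 0.22 under the cPLA_2_ WT and cPLA_2_ KO labels (limma, adjusted p = 0.00707 and 0.00550), which became -0.30 and -0.26 with libraries scaled to the same total. Neither passed with TMM scaling (limma, adjusted p = 0.0599 and 0.0611). Under the cPLA_2_ KO label 2 alternatives, TMM scaling among them, lost the pass. Confined cells exceeded LPS-treated cells by 2.94 for cPLA_2_ WT and by 2.90 for cPLA_2_ KO as labelled (limma, adjusted p = 1.58e-18 and 1.05e-19). *Mmp19* was the protease among the 10 genes with the largest rise after confinement in both genotypes.

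Of the enzymes held at the cell surface, *Mmp14* encodes MT1-MMP, a transmembrane collagenase that also activates the precursor of MMP2 (chr14:54669055-54682821, plus strand). Nonconfined libraries held 3902, 3732 and 3596 in cPLA_2_ WT and 2814, 2953 and 2817 in cPLA_2_ KO cells. Confined libraries held 15607, 15003 and 15142 in cPLA_2_ WT and 4755, 4319.7 and 4495 in cPLA_2_ KO cells. With LPS the values were 26589.7, 32228 and 28748 under the cPLA_2_ WT label and 31034, 26479 and 28448 under the cPLA_2_ KO label. LPS libraries were highest and overlapped between labels, and each of the 4 other conditions was apart from its neighbours, with confined cPLA_2_ WT above confined cPLA_2_ KO, nonconfined cPLA_2_ WT and nonconfined cPLA_2_ KO. Mean levels ± SD (n = 3) were 29188 ± 2845 and 28654 ± 2285 under the LPS labels cPLA_2_ WT and cPLA_2_ KO, 15250.4 ± 316 in confined cPLA_2_ WT, 4523 ± 219 in confined cPLA_2_ KO, 3743 ± 154 in nonconfined cPLA_2_ WT and 2861 ± 79.3 in nonconfined cPLA_2_ KO libraries. The rise with confinement was 2.03 (4.07-fold, SE 0.06) in cPLA_2_ WT cells and 0.66 (1.58-fold) in cPLA_2_ KO cells (limma, adjusted p = 5.84e-17 and 1.91e-08). Between the genotypes the response differed by -1.37 (SE 0.09, limma, adjusted p = 6.36e-11). The level in cPLA_2_ KO cells was lower before confinement too, by -0.39 (adjusted p = 0.000481), and by -1.75 with confinement (adjusted p = 1.04e-15). LPS gave 2.96 under the cPLA_2_ WT label and 3.32 under the cPLA_2_ KO label (limma, adjusted p = 3.91e-20 and 6.20e-21).

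*Mmp25* encodes MT6-MMP, also called leukolysin, which is anchored to the membrane by a lipid (chr17:23848153-23864244, minus strand). Nonconfined libraries held 1574, 1485 and 1585 in cPLA_2_ WT and 1449.5, 1725 and 1712 in cPLA_2_ KO cells. Confined libraries held 3513, 3283 and 3309 in cPLA_2_ WT and 920.4, 810.4 and 780.1 in cPLA_2_ KO cells. The LPS labels gave 7038, 6629 and 6864 for cPLA_2_ WT and 6793, 6988 and 6718 for cPLA_2_ KO. Nonconfined libraries of the genotypes overlapped, all confined cPLA_2_ WT libraries lay above them and all confined cPLA_2_ KO libraries below them. The LPS libraries were highest. Mean levels ± SD (n = 3) were 6844 ± 206 and 6833 ± 139 under the LPS labels, 3368 ± 126 in confined cPLA_2_ WT, 1629 ± 155 in nonconfined cPLA_2_ KO, 1548 ± 55.2 in nonconfined cPLA_2_ WT and 837 ± 73.8 in confined cPLA_2_ KO libraries. *Mmp25* rose by 1.12 (2.18-fold) with confinement in cPLA_2_ WT cells and fell by -0.96 (1.94-fold lower) in cPLA_2_ KO cells (limma, adjusted p = 3.66e-12 and 1.23e-10). The rise was 0.90 and not called with libraries scaled to the same total. *Mmp25* was the 1 gene of the 10 that passed the test in opposite directions. The interaction was -2.08 (SE 0.09, limma, adjusted p = 1.15e-13), whereas the nonconfined genotypes differed by 0.07 (95% CI -0.07 to 0.21), which did not pass. The fall in cPLA_2_ KO cells was just short of a call, and it was called without nonconfined cPLA_2_ KO replicate 1 (-1.04) and without confined cPLA_2_ KO replicate 1 (-1.03). LPS raised *Mmp25* by 2.14 under the cPLA_2_ WT label and by 2.07 under the cPLA_2_ KO label (limma, adjusted p = 2.70e-17 and 4.98e-17). Relative to LPS it was lower by -1.02 for cPLA_2_ WT and by -3.03 for cPLA_2_ KO cells after confinement, the former without a call in edgeR (-0.95) and DESeq2 (-0.99).

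Among the inhibitors, *Timp1* encodes a soluble inhibitor of most MMPs (chrX:20735224-20740974, plus strand). Nonconfined libraries held 25.9, 23.0 and 31.4 in cPLA_2_ WT and 32.9, 19.5 and 15.5 in cPLA_2_ KO cells. Confined libraries held 2701, 2597 and 2622 in cPLA_2_ WT and 72.3, 77.8 and 66.5 in cPLA_2_ KO cells. Libraries labelled LPS cPLA_2_ WT held 865, 1524 and 1248 and those labelled LPS cPLA_2_ KO 1584, 887 and 1165. Confined cPLA_2_ WT libraries were thus the highest of all 18 and close to each other, while the confined cPLA_2_ KO libraries lay between the nonconfined and the LPS libraries. Nonconfined genotypes overlapped, as did the LPS labels, and all other neighbours in the order were apart. Mean levels ± SD (n = 3) were 2639.9 ± 54.3 in confined cPLA_2_ WT, 1212 ± 331 and 1212 ± 351 under the LPS labels cPLA_2_ WT and cPLA_2_ KO, 72.2 ± 5.66 in confined cPLA_2_ KO, 26.8 ± 4.28 in nonconfined cPLA_2_ WT and 22.7 ± 9.10 in nonconfined cPLA_2_ KO libraries. The highest mean was 116 times the lowest, the widest span among the 10 genes. Confinement raised *Timp1* by 6.58 (95.8-fold, SE 0.23) in cPLA_2_ WT cells and by 1.69 (3.24-fold) in cPLA_2_ KO cells (limma, adjusted p = 5.33e-16 and 3.28e-06). The interaction was -4.89 (SE 0.32, 95% CI -5.56 to -4.21, limma, adjusted p = 1.09e-10). Confined cPLA_2_ KO cells were lower than confined cPLA_2_ WT cells by -5.18 (36.1-fold lower, adjusted p = 5.37e-14), and nonconfined cells differed by -0.29 (95% CI -0.77 to 0.19), which did not pass. LPS gave 5.42 under the cPLA_2_ WT label and 5.71 under the cPLA_2_ KO label (limma, adjusted p = 7.61e-15 and 3.21e-15). Against LPS, *Timp1* was higher in confined cPLA_2_ WT cells by 1.16 (adjusted p = 0.000246), which was 0.94 and not called without replicate 1 of the libraries labelled LPS cPLA_2_ WT. In confined cPLA_2_ KO cells it was lower than under LPS by -4.01 (adjusted p = 1.86e-12). The LPS library with least *Ddx3y* under each label had the most *Timp1*, in reverse to *Mmp9*.

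*Timp2* encodes the inhibitor that also takes part in the activation of the MMP2 precursor by MT1-MMP (chr11:118191891-118246332, minus strand). Nonconfined libraries held 2250.1, 2369.7 and 2244 in cPLA_2_ WT and 3556, 3278 and 3255 in cPLA_2_ KO cells. Confined libraries held 2477, 2338 and 2168 in cPLA_2_ WT and 4283, 3919 and 4066 in cPLA_2_ KO cells. The LPS labels held 2092, 1405 and 1671 for cPLA_2_ WT and 1472, 2025 and 1795 for cPLA_2_ KO. The 6 cPLA_2_ KO libraries without LPS lay above all others, the 6 cPLA_2_ WT libraries without LPS overlapped between treatments, and the LPS libraries were lowest. Spread and level (mean ± SD, n = 3) were 4089 ± 183 and 2327 ± 155 after confinement of cPLA_2_ KO and cPLA_2_ WT cells and 3363 ± 168 and 2288 ± 70.7 without it, with 1764 ± 278 and 1723 ± 346 under the LPS labels cPLA_2_ KO and cPLA_2_ WT. The genotype difference was 0.55 in nonconfined and 0.81 in confined cells (limma, adjusted p = 0.00273 and 3.04e-06). Confinement gave 0.02 in cPLA_2_ WT cells (95% CI -0.20 to 0.25), which did not pass and was -0.02 with TMM scaling and -0.20 with libraries scaled to the same total. In cPLA_2_ KO cells *Timp2* rose by 0.28 (adjusted p = 0.0386), which was lost when any 1 of 5 libraries was left out, with adjusted p up to 0.115 without confined cPLA_2_ KO replicate 1. It was also lost without a filter, with TMM scaling and with libraries scaled to the same total. The interaction of 0.26 (95% CI -0.06 to 0.58) did not pass, but it passed at 0.45 with libraries scaled to the same total and with the LPS libraries left out of the fit (adjusted p = 0.0163, with a range of 0.0163 to 0.408 over all alternatives). With LPS the level fell by -0.43 under the cPLA_2_ WT label and by -0.94 under the cPLA_2_ KO label (limma, adjusted p = 0.00167 and 1.28e-07), and by -0.94 and -1.42 with libraries scaled to the same total. *Timp1* and *Timp2* thus moved apart under LPS in both labels.

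*Adam8* encodes a membrane protease of leukocytes that sheds cell surface proteins (chr7:139558845-139572475, minus strand). It ranged from 31467 to 36451 normalized counts in the 6 nonconfined libraries, from 53245 to 58614 in the 6 confined libraries and from 48522 to 53201 in the 6 LPS libraries. Nonconfined libraries lay below all others, confined libraries were highest without overlap with the LPS libraries, and the genotypes overlapped in each treatment. Mean levels ± SD (n = 3) were 32533 ± 1806 and 35345 ± 1216 in nonconfined cPLA_2_ WT and cPLA_2_ KO, 57106 ± 1491 and 55512 ± 2570.2 in confined cPLA_2_ WT and cPLA_2_ KO, and 50476 ± 2364 and 50134 ± 1766 in LPS libraries by label. Confinement raised *Adam8* by 0.81 in cPLA_2_ WT and by 0.65 in cPLA_2_ KO cells (limma, adjusted p = 6.27e-12 and 5.91e-10). The interaction of -0.16 (95% CI -0.31 to -0.02, adjusted p = 0.0951) did not pass in limma, passed in edgeR (adjusted p = 0.0341), without nonconfined cPLA_2_ WT replicate 1 (adjusted p = 0.0353) and without confined cPLA_2_ KO replicate 1 (adjusted p = 0.0495), and was 0.03 with libraries scaled to the same total. LPS raised it by 0.63 under the cPLA_2_ WT label and by 0.50 under the cPLA_2_ KO label, and these were 0.12 (adjusted p = 0.0359) and 0.02 (adjusted p = 0.678) with libraries scaled to the same total. The span between the highest and the lowest mean, 1.76 times, was the narrowest of the 10 genes.

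Likeness between the 10 genes was described by Pearson correlations of log2(normalized count + 1) over the 18 libraries, which share 6 conditions and are no independent points. *Mmp13* and *Mmp14* had the highest r among them, 0.981. *Mmp8* and *Timp2* followed with an r of 0.952, and *Mmp12* and *Adam8* with an r of 0.943. *Mmp14* had an r of 0.928 with *Timp1* and of 0.915 with *Mmp25*, whereas *Mmp8* and *Mmp25* had the lowest r, -0.914. Outside the 10 genes, the most alike of 10411 genes whose mean reached 100 normalized counts were named for each (n = 18). For *Mmp13* these were *Itga5* (r = 0.999), *Anxa7* (r = 0.998) and *AA467197* (r = 0.997). *Mmp14* was most like *Dyrk2*, *Trim25* and *Acpp* (r = 0.997 for each). For *Mmp25* the closest were *Znfx1* and *Ddx58* (r = 0.998 for both) and *Gbp3* (r = 0.997). *Timp1* came closest to *Pon3* (r = 0.993), *Gk* and *Ndrg1* (r = 0.991 for both). *Mmp19* had *Clec7a* (r = 0.990), *Clba1* (r = 0.981) and *Tnfrsf12a* (r = 0.978). The genes nearest to *Mmp8* were *Snph* (r = 0.990), *Atp13a2* (r = 0.979) and *Tmem40* (r = 0.977). *Mmp9* was nearest to *Ceacam10* (r = 0.984) and *Tmem254a* (r = 0.970), with *Tmem181b-ps* between them. Those of *Mmp12* were *Psmd5* (r = 0.983), *Zfp655* (r = 0.981) and *Atf4* (r = 0.978). *Timp2* came nearest to *Fam234a* (r = 0.976), *Sirpb1c* (r = 0.972) and *Hexa* (r = 0.969). *Adam8* did so to *Zfp523* (r = 0.985), *Blcap* (r = 0.981) and *Rps6ka2* (r = 0.980).

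Position was compared next, since *Mmp13*, *Mmp12* and *Mmp8* lie in 1 cluster of 10 metalloproteinase genes on chromosome 9 that spans 427 kb of mm39 (chr9:7272514-7699586). The other 7 genes of the cluster were at most at 55.0 normalized counts in any library (*Mmp27*), and *Mmp3* reached 32.0, *Mmp20* less than that, *Mmp10* 18.7, *Mmp1b* 11.2, *Mmp7* 3.88 and *Mmp1a* 2.13. The 3 abundant genes of the cluster thus had neighbours at low levels, and they differed in pattern, with *Mmp13* highest after LPS, *Mmp12* after confinement and *Mmp8* in cPLA_2_ KO cells without LPS. *Timp1* lies within *Syn1* on the opposite strand, *Mmp12* overlaps *Mmp1b*, and *Mmp19* overlaps *Tmem198b*, and *Timp2* overlaps *Cep295nl* on the same strand. The libraries were strand-specific, but how strands were treated in counting is not stated, so that reads within such overlaps cannot be assigned with certainty. *Syn1*, looked at after the values of *Timp1* were seen, stayed between 113 and 217 normalized counts in all 18 libraries, while *Timp1* ran from 15.5 to 2701.

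**Figure D3:**
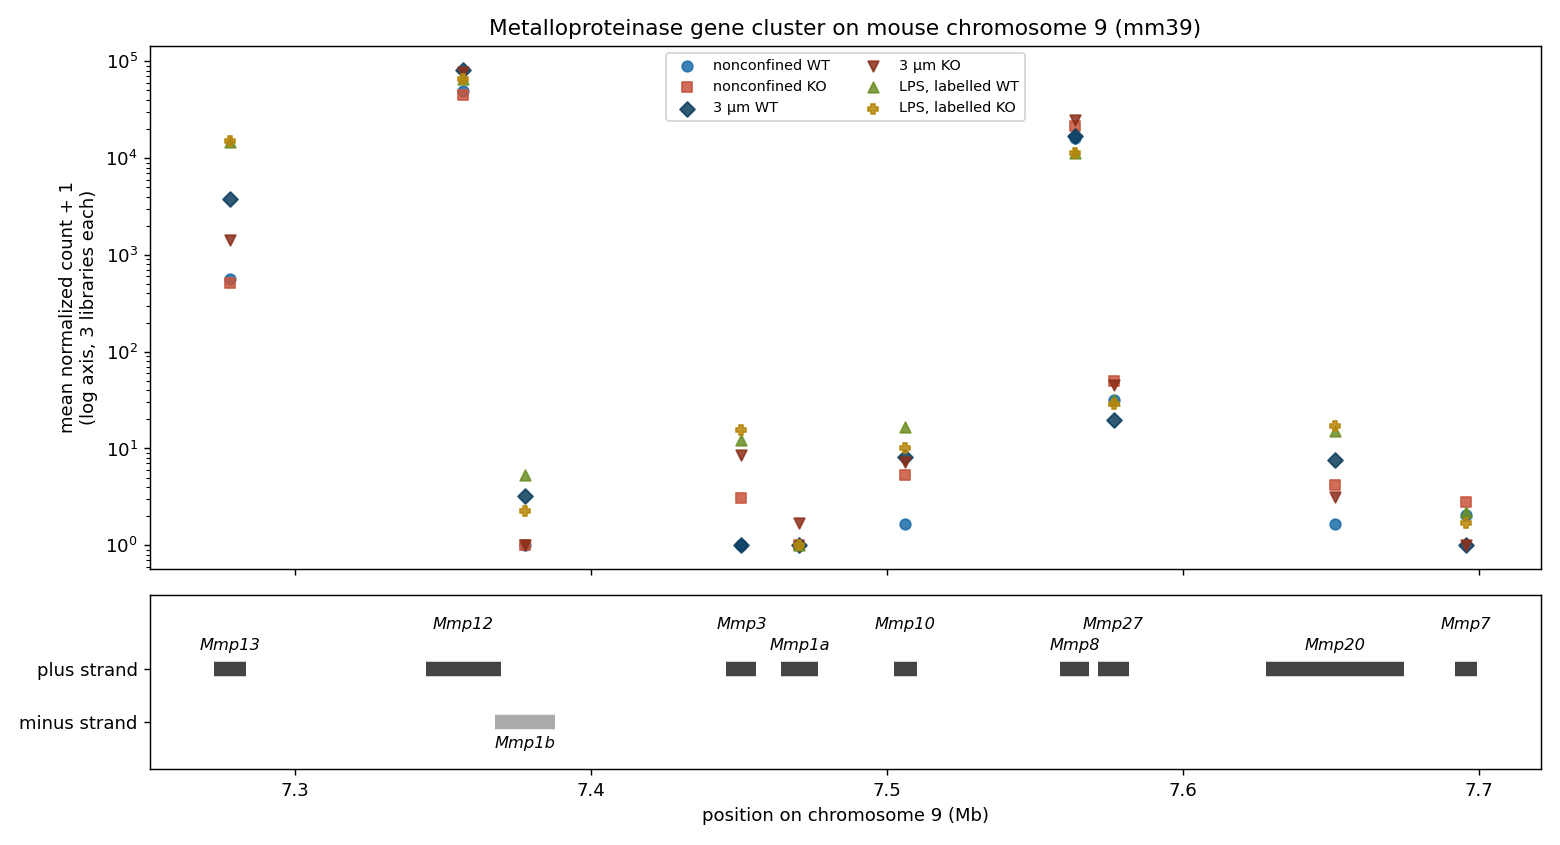
Mean normalized count + 1 (log axis) of the 10 metalloproteinase genes of the chromosome 9 cluster in each condition (upper panel, 3 libraries each) above their positions and strands on mm39 (lower panel). *Mmp13*, *Mmp12* and *Mmp8* stand above the other genes of the cluster, which stayed at 55.0 or less in every library.

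Promoters were compared because *Mmp13*, *Mmp14*, *Mmp25* and *Timp1* shared a weaker or opposite response in cPLA_2_ KO cells, whereas *Mmp19* responded in both genotypes. Promoters on GRCm39 were found for all 10 genes and were searched on both strands for 4 motifs. Each ran from 250 bases before to 50 bases after the start of the canonical transcript in GENCODE M39. Starts of canonical transcripts are not always those of the gene spans given with each gene, and the promoters of *Timp1* and *Mmp12* lie inside those spans. The motifs were the AP-1 motif TGANTCA, the motif of interferon regulatory factors (IRF), the cyclic AMP response element (CRE) TGACGTCA, and the NF-kB motif. Of 21751 promoters of this length, 7.14% held the AP-1 motif, 3.83% the IRF motif, 2.45% the CRE motif and 8.96% the NF-kB motif. AP-1 matches were found in *Mmp9*, *Mmp12*, *Mmp13* and *Mmp19*, with their first bases at -69, -44, -35 and -26 from the start. *Mmp13* also held an IRF match at -146, and *Mmp25* held 2 NF-kB matches at -80 and -43. No match was found in *Mmp8*, *Mmp14*, *Timp1*, *Timp2* and *Adam8*, and no matches overlapped each other. A match is a description of letters, not a binding site. Shown are the 4 promoters of the genes with a differing response and that of *Mmp19* for contrast, 5′ to 3′, with matches in capitals. *Mmp13* is chr9:7272264-7272563, plus strand. *Mmp14* is chr14:54668628-54668927, plus strand. *Mmp25* is chr17:23864202-23864501, minus strand. *Timp1* is chrX:20736101-20736400, plus strand. *Mmp19* is chr10:128626523-128626822, plus strand.
Mmp13: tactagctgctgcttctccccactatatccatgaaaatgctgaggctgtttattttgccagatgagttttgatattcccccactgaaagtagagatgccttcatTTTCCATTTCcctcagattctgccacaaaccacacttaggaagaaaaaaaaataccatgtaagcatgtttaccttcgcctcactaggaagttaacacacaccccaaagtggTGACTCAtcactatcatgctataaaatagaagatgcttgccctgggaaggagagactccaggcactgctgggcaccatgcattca
Mmp14: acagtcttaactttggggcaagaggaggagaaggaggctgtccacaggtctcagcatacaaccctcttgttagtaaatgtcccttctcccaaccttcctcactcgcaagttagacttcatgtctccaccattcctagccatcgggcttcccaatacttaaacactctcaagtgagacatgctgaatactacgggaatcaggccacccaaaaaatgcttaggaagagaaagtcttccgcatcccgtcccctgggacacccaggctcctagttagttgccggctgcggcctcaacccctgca
Mmp25: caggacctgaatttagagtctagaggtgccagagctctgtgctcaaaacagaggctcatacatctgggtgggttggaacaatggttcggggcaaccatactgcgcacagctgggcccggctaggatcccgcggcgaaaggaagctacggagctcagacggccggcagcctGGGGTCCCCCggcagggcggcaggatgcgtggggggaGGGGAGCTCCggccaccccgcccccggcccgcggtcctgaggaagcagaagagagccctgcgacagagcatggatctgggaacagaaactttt
Timp1: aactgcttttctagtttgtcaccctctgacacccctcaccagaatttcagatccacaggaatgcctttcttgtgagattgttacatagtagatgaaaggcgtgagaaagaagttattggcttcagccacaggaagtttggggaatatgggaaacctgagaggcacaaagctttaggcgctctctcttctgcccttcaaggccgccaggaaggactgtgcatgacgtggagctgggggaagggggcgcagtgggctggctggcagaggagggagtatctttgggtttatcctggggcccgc
Mmp19: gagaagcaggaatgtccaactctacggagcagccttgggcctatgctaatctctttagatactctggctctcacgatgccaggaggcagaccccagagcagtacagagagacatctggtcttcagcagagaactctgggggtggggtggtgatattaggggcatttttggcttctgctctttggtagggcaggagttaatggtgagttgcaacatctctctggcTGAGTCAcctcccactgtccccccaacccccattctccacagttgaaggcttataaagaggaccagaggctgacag

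Other genes of matrix proteolysis were counted from lists, beside which stand the shares of all genes called after confinement, 11.4% upward and 7.62% downward in cPLA_2_ WT cells and 6.43% and 5.53% in cPLA_2_ KO cells. Of 16 further MMP genes 9 could be tested, and in cPLA_2_ WT cells confinement called 3 upward and 1 downward, with a median log2 fold change of 0.36. The 3 upward calls rest on low levels, with means of 6.59 to 7.17 normalized counts in confined and at most 0.655 in nonconfined cPLA_2_ WT cells. In cPLA_2_ KO cells it called 1 of these 9, downward, and the interaction called 2, both downward, where 6.56% of all genes were. *Mmp2*, whose precursor MT1-MMP activates, was the abundant gene of that list, and it rose by 1.43 and 1.25 with LPS under the cPLA_2_ WT and cPLA_2_ KO labels (limma, adjusted p = 2.28e-11 and 2.23e-10). Its mean was 1070.2 in nonconfined and 1374 in confined cPLA_2_ WT cells. Of 3 further inhibitor genes 2 were tested, and confinement of cPLA_2_ WT cells called 1 upward and 1 downward. The downward call was at -1.10 in cPLA_2_ WT cells (adjusted p = 0.000143) and at -0.60 in cPLA_2_ KO cells (adjusted p = 0.0249), on a gene whose mean was under 100 normalized counts. *Timp3* rose by 1.00 with confinement in cPLA_2_ WT cells (adjusted p = 0.000909) and fell by -0.95 in cPLA_2_ KO cells (adjusted p = 0.00203). Its interaction was -1.96 (limma, adjusted p = 0.000103), at means between 36.0 and 172 normalized counts in the conditions without LPS. Of 11 further ADAM genes 9 were tested, and confinement called 2 upward and 1 downward in cPLA_2_ WT cells and 1, downward, in cPLA_2_ KO cells. *Adam9* rose by 1.18 in cPLA_2_ WT and 0.43 in cPLA_2_ KO cells, with an interaction of -0.75 (limma, adjusted p = 7.13e-08). The TNF sheddase gene *Adam17* was called with LPS, at 1.54 and 1.52 under the cPLA_2_ WT and cPLA_2_ KO labels, and *Adam19* under the cPLA_2_ WT label at 1.02, against 0.43 under the cPLA_2_ KO label. The LPS means of *Adam19* were alike (1655 and 1687), whereas its nonconfined means were 809.7 in cPLA_2_ WT and 1247 in cPLA_2_ KO cells. Of 13 ADAMTS genes 8 were tested, and confinement called 4, all upward, in cPLA_2_ WT cells, and 1 upward and 1 downward in cPLA_2_ KO cells. The 4 upward calls fell on genes with means of 24.8 to 76.8 in confined and 2.69 to 30.2 in nonconfined cPLA_2_ WT cells. *Adamts10*, the abundant gene called in that list, was at -1.03 under the LPS label cPLA_2_ KO. Under the LPS label cPLA_2_ WT it fell by -0.79 without a call (limma, adjusted p = 2.01e-08), and its LPS means were alike (474 and 460). With confinement it fell in cPLA_2_ WT cells by -0.52 (adjusted p = 1.04e-05).

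Genes that act upstream of MMP activity, such as plasminogen activators, their inhibitors, furin and partners of ADAM17, made up a list of 12, of which 10 were tested. Confinement called 8 of these 10 in cPLA_2_ WT cells, all upward, where 11.4% of all genes were, with a median of 1.32. In cPLA_2_ KO cells the median was 0.63, and the interaction called 3, all downward, against 6.56% of all genes. *Plat*, encoding tissue plasminogen activator, had a mean of 15.6 in nonconfined and 852 in confined cPLA_2_ WT cells, and of 16.5 and 11.6 in cPLA_2_ KO cells. The change of *Plat* was 5.68 in cPLA_2_ WT cells (adjusted p = 3.37e-10), and in cPLA_2_ KO cells it was -0.87 (95% CI -1.78 to 0.04), which did not pass. Interactions were -6.55 for *Plat* and -2.85 for *Serpinb2*, which encodes an inhibitor of urokinase (limma, adjusted p = 3.25e-08 and 2.76e-17). *Furin*, whose product cuts the precursors of membrane-type MMPs, rose by 1.67 in cPLA_2_ WT and by 0.72 in cPLA_2_ KO cells, with an interaction of -0.95 (adjusted p = 1.44e-09). *Rhbdf2*, which encodes the ADAM17 partner iRhom2, rose by 1.38 and 0.54. *Plaur*, encoding the urokinase receptor, rose by 1.17 and 0.85, and *Cd44*, whose product holds MMPs at the cell surface, by 1.23 and 0.99. Under LPS 8 of the 10 were called upward and 1 downward with either label, against 15.0% and 12.3% of all genes under the cPLA_2_ WT label and 15.0% and 12.9% under the cPLA_2_ KO label. The latter was the urokinase gene *Plau*, at -1.44 under both labels, while confinement gave 0.03 (95% CI -0.09 to 0.16) in cPLA_2_ WT cells and a rise of 0.25 (adjusted p = 0.00217) in cPLA_2_ KO cells.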

How the data were processed

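Bulk RNA-seq of 18 libraries in 6 conditions was analysed, with conditions and replicate numbers taken from the sample labels. Per-gene signal was taken as the authors deposited it, which by the submitters' processing notes and the Methods rests on STAR 2.7.5a on mm39, featureCounts 1.5.0 and the Mouse FAST DB annotation, followed by division by DESeq2 size factors in R 3.5.3. Whole reads were recovered for 100% of values within a tolerance of 1e-06, which gave the depths. The test was limma 3.58.1 in R 4.3.3 (lmFit, contrasts.fit, eBayes with a trend) on log2(normalized count + 1), with a mean per condition, 17875 of 62197 genes tested and Benjamini-Hochberg adjustment per comparison. It was tested on simulated data. The 10 genes were chosen by symbol, and named genes were these, *Pla2g4a*, *Ddx3y*, *Eif2s3y*, *Acot1*, some markers, genes that overlap or neighbour the 10, genes of the lists that were called against nonconfined cells and whose mean reached 100 normalized counts, and the 3 genes with the highest Pearson r to each of the 10. A result of 1 listed gene is not reported here. The 10 genes, the lists of proteases, inhibitors and activators and the marker lists were chosen with earlier results of these data known. The analysis was repeated with a pseudocount of 0.5 or 5, without a filter, with a filter of 100, TMM and same-total scaling, edgeR 4.0.16 and DESeq2 1.42.0 on recovered reads, the compared conditions alone, a replicate block, the thresholds stated in the Methods, leaving out each library, and the exchanged LPS controls. Transcript lengths and promoter starts came from canonical transcripts of GENCODE M39, and promoter bases from the GRCm39 genome sequence.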

Additional observations from a re-analysis of the deposited data

Results flagged for a closer look

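For 4 genes the confinement effect differed between the genotypes, which was tested by the interaction of confinement and genotype in limma. The difference, as response in cPLA_2_ KO minus response in cPLA_2_ WT cells on the log2 scale, was -4.89 for *Timp1*, -2.08 for *Mmp25*, -1.37 for *Mmp14* and -1.30 for *Mmp13*. *Mmp25* rose with confinement in cPLA_2_ WT cells and fell in cPLA_2_ KO cells, whereas the other 3 genes rose in both genotypes and less in cPLA_2_ KO cells. Genotype and sex of the donors cannot be told apart in these libraries.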

How the results depend on the processing

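Log2 fold changes of the 10 genes kept their side of an adjusted p of 0.05 in 1629 of the alternatives run, no longer passed it in 32, newly passed it in 14 and reversed in 5 where either value passed it, and counts of called genes stayed within 1.5 times the reported count in 175 and moved in 3. All 5 reversals came with libraries scaled to the same total, for *Mmp8* in confined against nonconfined cPLA_2_ WT cells (-0.13), *Mmp12* in confined cPLA_2_ KO against confined cPLA_2_ WT cells (0.0929), *Mmp12* under the LPS label cPLA_2_ WT (-0.11) and *Mmp19* under the LPS labels cPLA_2_ WT (-0.30) and cPLA_2_ KO (-0.26). None of these was called in the reported analysis, and the scaling itself moved the median of all genes in these comparisons. In confined cPLA_2_ WT against libraries labelled LPS cPLA_2_ WT the 5 calls became 3 with that scaling, where *Mmp9* (-0.77) and *Mmp25* (-0.73) were lost. Leaving out 1 library at a time gave 3 to 5 calls there, with 3 without replicate 1 labelled LPS cPLA_2_ WT, where *Mmp9* (-0.79) and *Timp1* (0.94) were lost. With a fold change of 1.5 and unadjusted p-values, as in the Methods, 8 genes in place of 3 were called after confinement of cPLA_2_ KO cells. Both the fold threshold and the p-value differ there. The share of all genes called at these thresholds was not counted, so that the 8 calls are not set against it. Replicate numbers did not pair the libraries throughout, since the deviations from group means of libraries with the same number correlated at -0.142 to 0.338. In confined cPLA_2_ KO against confined cPLA_2_ WT cells they correlated at 0.338, 0.208 and 0.0402 for like numbers. For unlike numbers the correlations there were -0.314 to 0.166. Confined against nonconfined cPLA_2_ WT libraries gave 0.183, 0.106 and -0.0638 for like numbers. With a replicate block no count of calls moved and 1 result no longer passed, *Mmp12* in nonconfined cPLA_2_ KO against cPLA_2_ WT cells (-0.13, adjusted p = 0.0533). The exchange of controls for the LPS libraries was chosen after seeing the data. The cause of the changes under the alternatives was not tested. With TMM scaling *Mmp19* under LPS did not pass (adjusted p = 0.0599 and 0.0611).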
